A study of Mus musculus with 30 samples.

Results

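The 34 genes described here encode the chaperones, folding enzymes and transcription factors of the heat shock response and of the unfolded protein response of the endoplasmic reticulum (ER). They were chosen by name from 36528 gene IDs in the count files, with earlier results of these data known. Of them, 20 belong to the ER stress pathway and 14 to the cytosolic and mitochondrial heat shock system. RNA was sequenced from 30 libraries of mouse brain cells sorted into Cd11b+ myeloid cells, Gfap+ astrocytes and NeuN+ neurons, with 5 libraries per group. In each of the 3 populations, cells of PS2APP transgenic mice were set against cells of their non-transgenic (non-Tg) littermates, and every animal was 11.5 months old. PS2APP mice carry human mutant presenilin and amyloid precursor protein transgenes and accumulate amyloid plaques with age; the labels name neither the promoters and alleles of the transgenes nor which libraries come from the same animal. The p-values below therefore measure the spread between libraries, which may be partly technical.

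Both responses sense misfolded protein and raise the machinery that handles it. In the cytosol, the transcription factor HSF1 is held inactive by chaperones and, once free, binds heat shock elements and drives genes of the Hsp70, Hsp90, Hsp110 and J-protein families. In the ER, the sensors IRE1, PERK and ATF6 respond to unfolded protein: IRE1 splices the Xbp1 mRNA, PERK slows translation and favours ATF4, and ATF6 is cut to release a transcription factor that acts through ER stress elements. Microglia, astrocytes and neurons all depend on these systems, and both have been studied in amyloid models because amyloid and tau are aggregating proteins.

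The regulatory elements that link these genes were read from the RefSeq promoter table (GRCm38.p6), which spans 250 bases before to 50 bases after each start site and held 28 of the 34 genes. The ER stress element, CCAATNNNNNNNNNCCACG on either strand, was found in 7 of the 18 ER stress genes with a promoter (Hspa5, Hsp90b1, Calr, Canx, Creld2, Dnajc3 and Pdia6), against 0.137% of 27025 genes in the table. The second form, ATTGG and CCACG parted by 1 base, was found in Herpud1, against 0.0444% of all genes. The heat shock element, GAANNTTCNNGAA, was found in 3 of the 10 heat shock genes with a promoter (Hspd1, Hspe1 and Hsph1), against 0.662% of all genes. The unfolded protein response element, TGACGTGG, and the CEBP-ATF element, TGATGNAAT, matched the promoter of no member, against 0.714% and 1.08% of all genes. A match is a description of the letters and not a measured binding site.

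The following stretches are shown because they carry the shared elements of the genes whose values are given below, written 5′ to 3′ on the strand of the gene with the element in capitals. Hspa5 (chr2:34772005-34772063, plus strand) has the element from 65 to 47 bases before its start. Hsp90b1 (chr10:86705513-86705676, minus strand) has 2 copies in opposite orientation. The element of Calr (chr8:84847055-84847113, minus strand) and that of Creld2 (chr15:88819500-88819558, plus strand) lie in the reverse orientation. Herpud1 (chr8:94386357-94386407, plus strand) carries the second form. Hspe1 and Hspd1 are divergent neighbours, and the Hspe1 stretch (chr1:55088039-55088096, plus strand), with 2 overlapping matches, is the reverse complement of that of Hspd1.
Hspa5: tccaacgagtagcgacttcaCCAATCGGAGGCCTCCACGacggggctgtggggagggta
Hsp90b1: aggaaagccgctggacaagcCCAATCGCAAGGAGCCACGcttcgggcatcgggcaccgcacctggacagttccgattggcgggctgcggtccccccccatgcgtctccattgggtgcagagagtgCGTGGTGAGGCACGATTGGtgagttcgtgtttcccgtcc
Calr: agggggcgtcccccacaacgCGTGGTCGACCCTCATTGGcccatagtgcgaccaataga
Creld2: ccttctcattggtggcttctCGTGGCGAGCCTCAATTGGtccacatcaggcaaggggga
Herpud1: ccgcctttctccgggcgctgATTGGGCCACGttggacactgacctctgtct
Hspe1: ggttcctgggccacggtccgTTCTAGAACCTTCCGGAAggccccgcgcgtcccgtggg
In Hsph1 the match, TTCTGGAAAGTTC, lies downstream of the start, from base 16 to base 28 of one RefSeq start site and from base 37 to base 49 of the other.

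Library totals ran from 2015535 to 6749681 counts, so that 3 counts corresponded to 0.444 to 1.49 CPM on those totals. Unless stated otherwise, all other CPM given here are scaled to the library total times a TMM factor, set within each population. The sorted populations carried their own markers, with the summed astrocyte markers at 10160 and 13200 CPM in PS2APP and non-Tg astrocytes, the summed myeloid markers at 8107 and 10100 CPM in PS2APP and non-Tg myeloid cells, and the summed neuron markers at 3439 and 3128 CPM in PS2APP and non-Tg neurons. Markers of other cells were present in every group. In myeloid libraries the sum of 8 oligodendrocyte markers, all with counts, ran from 1091 to 1760 CPM in PS2APP and from 660 to 1055 CPM in non-Tg mice, and that of 13 neuron markers, all with counts, from 252 to 433 CPM in PS2APP and from 191.5 to 296 CPM in non-Tg mice. In astrocytes the oligodendrocyte sum ran from 850 to 1791 CPM in PS2APP and from 675 to 1055 CPM in non-Tg mice, and the neuron sum from 788 to 1843 CPM in PS2APP and from 617 to 897 CPM in non-Tg mice. The sum of 12 myeloid markers, all with counts, ran from 70.0 to 134 CPM in PS2APP and from 38.9 to 67.8 CPM in non-Tg astrocytes, without overlap. In myeloid libraries the sum of neutrophil and monocyte markers ran from 19.0 to 697 CPM in PS2APP and from 87.0 to 1102 CPM in non-Tg mice. The astrocyte sum averaged 805 and 811 CPM in PS2APP and non-Tg myeloid cells, and 690 and 760.5 CPM in PS2APP and non-Tg neurons. Gfap, a marker within that sum, is given with TMM factors set over all 30 libraries. It ran from 77.9 to 165 CPM in PS2APP and from 11.8 to 22.3 CPM in non-Tg myeloid cells. In neurons it ran from 8.42 to 17.2 and from 2.29 to 5.03 CPM, and in astrocytes from 1019 to 1584 and from 452 to 906 CPM. The other markers of the sum are not given singly. The part of such carried-over cells in the differences below was not tested beyond the fits with marker sums as a term, which held no neutrophil or monocyte markers. The share of counts from mitochondrially encoded genes was 13.5 ± 2.97% in PS2APP and 8.75 ± 2.89% in non-Tg myeloid cells (SD, n = 5 each), 6.91 ± 1.14% in PS2APP and 3.58 ± 0.866% in non-Tg astrocytes, and 1.51 ± 0.268% in PS2APP and 1.21 ± 0.336% in non-Tg neurons. In each population 1 PS2APP library stood farthest out on the first principal component, replicate 4 of the myeloid cells, replicate 3 of the astrocytes and replicate 5 of the neurons. Replicate numbers only name libraries and pair none of them.

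Levels of different genes were compared on the deposited RPKM, which are counts times 1 factor per library, divided by gene length. That factor was not the inverse of the library total: its product with the total ran from 0.794 to 1.36 times the median over libraries. The most abundant of the ER stress genes was Hsp90b1, the ER form of Hsp90, with a mean of 79.0 ± 17.2 RPKM in PS2APP and 68.9 ± 10.4 in non-Tg myeloid cells, 41.4 ± 6.20 in PS2APP and 32.7 ± 4.56 in non-Tg astrocytes, and 39.1 ± 4.17 in PS2APP and 39.5 ± 6.72 in non-Tg neurons (SD, n = 5 each). Calr, a lectin chaperone of glycoproteins, came next among them in all 6 groups, from 17.6 ± 4.02 RPKM in non-Tg neurons to 46.1 ± 6.65 in PS2APP myeloid cells. Hspa5, the ER Hsp70 known as BiP, was much lower, between 6.37 ± 1.33 RPKM in PS2APP neurons and 13.4 ± 3.40 in PS2APP myeloid cells. At the low end, Trib3, a pseudokinase induced through ATF4, and Chac1, an enzyme that degrades glutathione, were both at or below 0.411 RPKM in every group.

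Among the heat shock genes, Hsp90ab1, the constitutive cytosolic Hsp90, averaged 68.0 ± 11.7 RPKM in PS2APP and 43.0 ± 7.81 in non-Tg myeloid cells and was the highest of its list in all 6 groups. Hsf1, the master transcription factor of the response, was also high, between 16.0 ± 3.74 RPKM in non-Tg neurons and 36.3 ± 11.7 in PS2APP astrocytes. The inducible Hsp70 genes Hspa1a and Hspa1b were close to nothing, with 39 and 10 counts over all 30 libraries. Several members share long stretches of sequence with paralogs or pseudogenes: among all 50-base windows of the transcript, 66.3% were shared with another gene for Hspa1a, 62.3% for Hspa1b, 58.5% for Hsp90aa1, 52.7% for Hspa8, 44.8% for Hspd1 and 28.8% for Dnaja1, against 4.49% for Hsp90ab1 and 0% for Hsph1, Hsf1 and Bag3. These are also genes with low values, such as Hspa8, the constitutive Hsp70, at 2.69 ± 0.725 and 2.84 ± 0.441 RPKM in PS2APP and non-Tg myeloid cells, and Hsp90aa1, the inducible Hsp90, at 0.813 ± 0.139 RPKM in non-Tg neurons, its highest group. How reads that fit several genes were counted is not given in the sources used here, so the level of these 6 genes is uncertain, and its relation to the shared sequence was not tested.

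**Figure D1:**
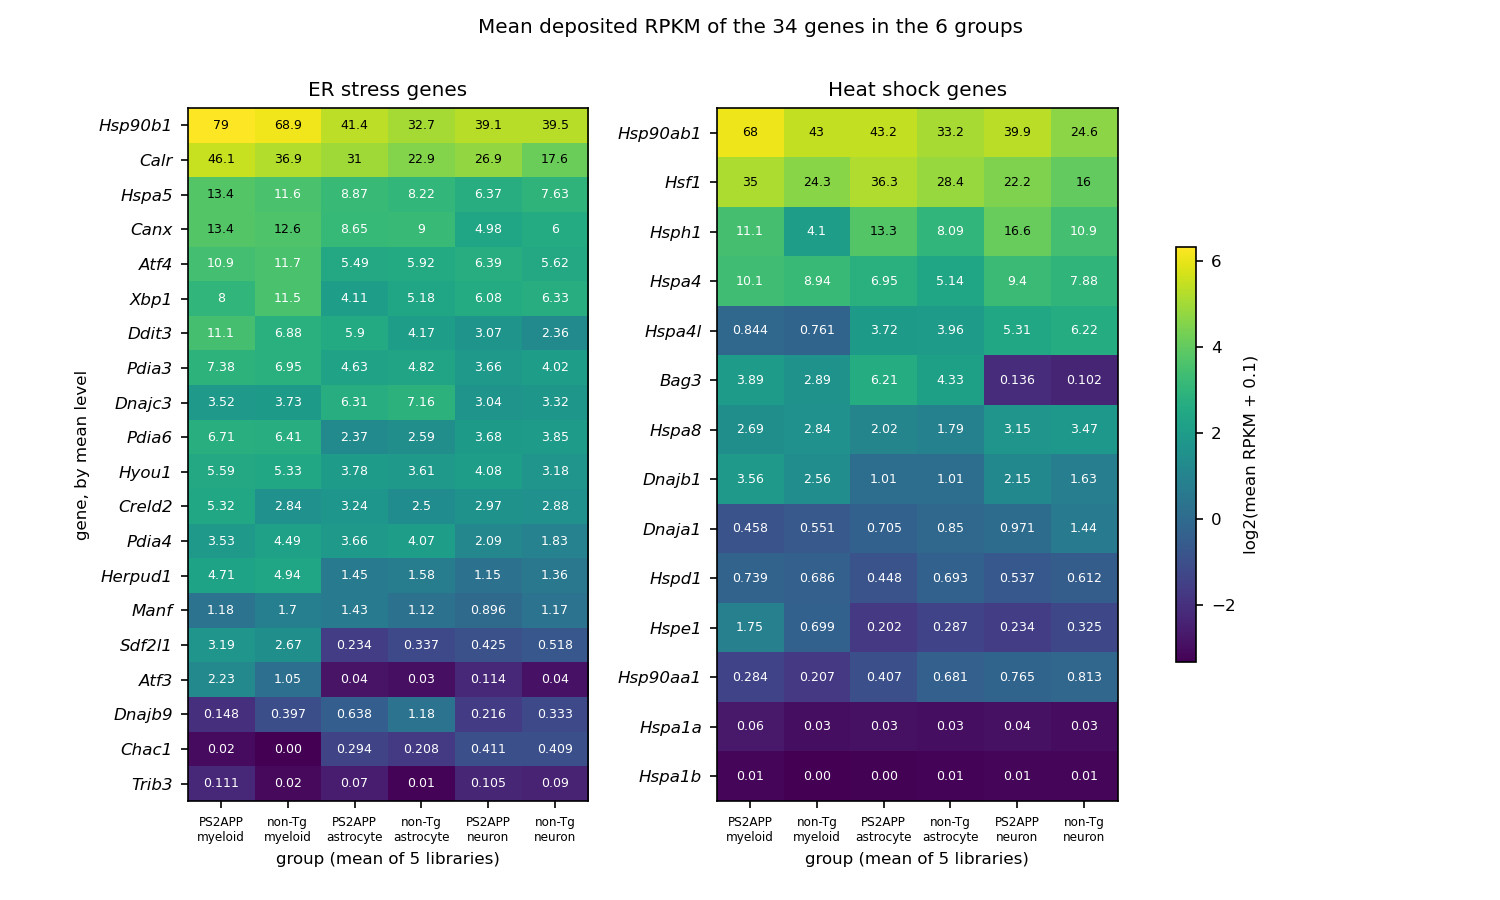
Mean deposited RPKM of the 20 ER stress genes (left) and the 14 heat shock genes (right) in the 6 groups, with PS2APP left of non-Tg in each population; colour is log2 of the mean plus 0.1, and each cell prints the mean of 5 libraries. Hsp90b1, Calr, Hsp90ab1 and Hsf1 are the highest rows, Bag3 is near 0.1 RPKM in both neuron groups, and Atf3 and Sdf2l1 are highest in the myeloid groups.

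In myeloid cells, 2 heat shock genes rose in PS2APP mice and no ER stress gene passed the test. The test was edgeR's quasi-likelihood test with Benjamini-Hochberg adjustment over all genes, with a call at an adjusted p under 0.05. Of the 34 members, 27 had counts high enough to be tested; Dnajb9, Trib3, Chac1, Hspa1a, Hspa1b, Hsp90aa1 and Hspe1 did not. Among the 10 tested heat shock genes, 2 were higher and 0 lower, where 1.86% of all 12274 genes tested were higher and 1.5% lower. The count for the 17 tested ER stress genes was 0 in edgeR, 0 in limma-voom and 1 (Creld2, higher) in DESeq2. In edgeR 4 of them had an unadjusted p under 0.05, as did 3 of the heat shock genes, and the share over all genes was 19.3%. Here and below, shares of all genes called are those of edgeR with TMM. Calls of DESeq2 and limma-voom are therefore given without a share to set them against. The 2 lists had median log2 fold changes of 0.25 (heat shock) and 0.04 (ER stress), against -0.002 over all genes tested. In these sorted bulk libraries a higher share of cells with a gene and more RNA per cell cannot be told apart.

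Hsph1 encodes an Hsp110 protein, the nucleotide exchange factor that works with Hsp70 to dissolve aggregates. It was counted at 132, 142, 136, 134 and 211 CPM in the PS2APP myeloid libraries, against 108, 49.2, 56.7, 43.1 and 43.6 CPM in the non-Tg ones. On this TMM scale every PS2APP library lay above every non-Tg library; Hsph1 was the only member of the 27 tested whose groups did not overlap, where 5.15% of all genes did not. Scaled to the library totals alone, PS2APP replicate 4 was at 107 CPM, just below non-Tg replicate 1 at 109 CPM, so that 0 of the 27 members had groups without overlap, against 7.06% of all genes. The log2 fold change was 1.39 ± 0.23 (SE), a 2.62-fold difference, with an adjusted p of 0.0017 in edgeR's test. The non-Tg library of 108 CPM stood apart from the other 4, and without it the log2 fold change was 1.71 ± 0.19. The call held in all 10 fits that left out 1 library.

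Hsp90ab1 is the constitutive cytosolic Hsp90, a chaperone of kinases and steroid receptors. It was counted at 594, 505, 413.5, 639 and 558 CPM in PS2APP myeloid libraries and at 421, 366, 438, 344 and 279 CPM in non-Tg ones. The lowest PS2APP library fell within the non-Tg range and the other 4 lay above it. The log2 fold change was 0.61 ± 0.16, with an adjusted p of 0.0355 in edgeR's test. This call held in 4 of the 10 fits that left out 1 library, with adjusted p-values up to 0.112; it was lost without PS2APP replicate 1, 4 or 5 and without non-Tg replicate 2, 4 or 5.

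Neither call held when the mitochondrial share of each library was a term of the model, where Hsph1 had a log2 fold change of 1.30 ± 0.30 and an adjusted p of 0.107, and Hsp90ab1 0.56 ± 0.20 and 0.33, both in edgeR. With the summed markers of other cell types as a term, Hsph1 kept its call (1.53 ± 0.32, adjusted p = 0.0274) and Hsp90ab1 did not (0.72 ± 0.21, adjusted p = 0.1).

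Hsf1 was the heat shock gene with the next smallest p in myeloid cells. Its level was 324, 152.5, 233, 333 and 265 CPM in PS2APP libraries and 212, 167, 212, 178 and 211 CPM in non-Tg libraries, so that 1 PS2APP library lay below all non-Tg ones and the other 4 above. The log2 difference of 0.47 ± 0.18 did not pass the test (adjusted p = 0.152, edgeR), and without the low PS2APP library, replicate 2, it was 0.62 ± 0.16 (adjusted p = 0.0371). The remaining 7 tested heat shock genes had log2 differences between -0.33 (Dnaja1, a J-protein partner of Hsp70) and 0.44 (Dnajb1, another J-protein), with adjusted p-values of at least 0.451.

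The 3 ER stress genes with the smallest p in myeloid cells differed in sign. Creld2, an ER-resident protein induced by ER stress, was counted at 41.1, 51.3, 29.8, 26.4 and 31.4 CPM in PS2APP libraries, against 29.1, 14.4, 24.6, 16.2 and 19.4 CPM in non-Tg libraries. Only the lowest PS2APP library lay inside the non-Tg range, and the log2 difference of 0.86 ± 0.28 had an adjusted p of 0.0897 in edgeR. Without non-Tg replicate 1 it was 1.01 ± 0.29, with an adjusted p of 0.0443. Xbp1, whose mRNA is the substrate of IRE1, was lower, at 72.8, 51.9, 47.1, 48.5 and 66.2 CPM in PS2APP libraries and 70.2, 103, 76.6, 113 and 80.9 CPM in non-Tg libraries. The highest PS2APP library lay above the lowest non-Tg library, and the other libraries did not overlap. The log2 difference of -0.57 ± 0.19 had an adjusted p of 0.0999. Gene counts do not separate the spliced from the unspliced Xbp1 mRNA.

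Ddit3, which encodes the pro-apoptotic factor CHOP downstream of PERK, was counted at 52.4, 54.9, 45.3, 107 and 52.6 CPM in PS2APP myeloid libraries and at 50.7, 51.6, 31.3, 35.0 and 40.9 CPM in non-Tg libraries. A single PS2APP library, replicate 4, stood at 107 CPM, and the other 4 reached no more than 54.9 CPM. The log2 difference of 0.62 ± 0.24 (adjusted p = 0.159, edgeR) was 0.35 ± 0.22 without it. The genes named above with the ER stress element did not pass edgeR's test in myeloid cells. Of them Creld2, whose values are given above, had the smallest p. The log2 differences of the others were 0.15 ± 0.18 for Hspa5, 0.14 ± 0.16 for Hsp90b1, 0.27 ± 0.14 for Calr and 0.04 ± 0.15 for Canx. They were 0.01 ± 0.24 for Pdia6 and -0.13 ± 0.22 for Dnajc3. The adjusted p-values of these others were at least 0.317 in edgeR. Atf4 itself, the factor that PERK favours, was at -0.16 ± 0.22, and Herpud1, a component of ER-associated degradation, at -0.11 ± 0.27. Atf3, a stress-induced factor of the same family, had the largest positive log2 difference of the ER list, 1.01 ± 0.45, on 159 counts in the 5 PS2APP libraries and 191 in the 5 non-Tg libraries, whose totals differ (adjusted p = 0.218). The largest negative one was that of Manf, a secreted ER protein, at -0.58 ± 0.37 (adjusted p = 0.413).

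**Figure D2:**
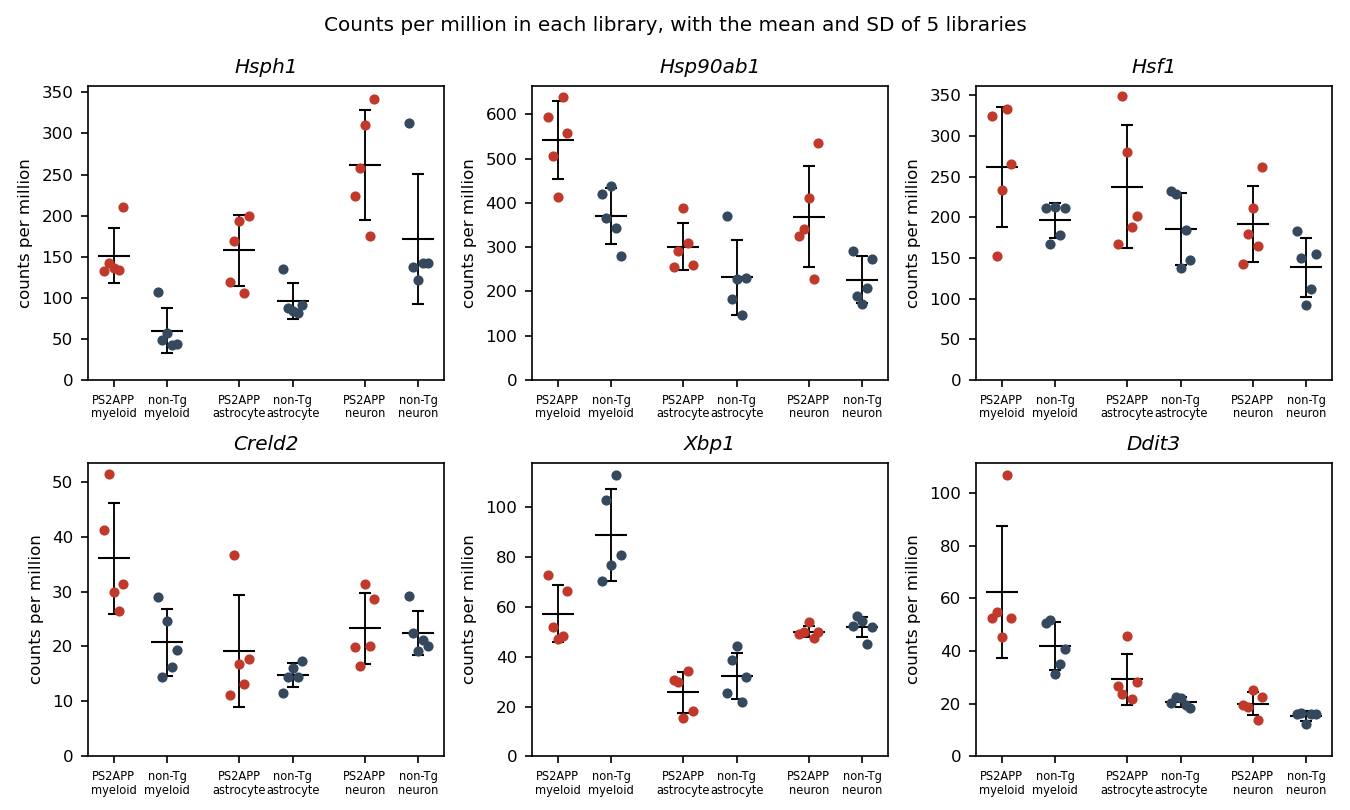
TMM-scaled CPM of Hsph1, Hsp90ab1, Hsf1, Creld2, Xbp1 and Ddit3 in each of the 30 libraries, PS2APP (red) left of non-Tg (dark blue-grey) in each population; points are libraries, horizontal bars the mean and error bars the SD of 5 libraries. The 5 PS2APP myeloid libraries sit between 132 and 211 CPM for Hsph1, above the 5 non-Tg libraries at 43.1 to 108 CPM, and in each population 1 non-Tg library stands above the other 4 for Hsph1.

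In astrocytes 0 members of either list passed edgeR's test, where 0.185% of all 14043 genes tested did. Of the 16 ER stress and 11 heat shock genes tested, 2 and 2 had an unadjusted p under 0.05, against 17.2% of all genes. The median log2 difference was -0.04 for the ER stress genes and 0.19 for the heat shock genes, against 0.01 over all genes tested. The values ran from -0.83 (Dnajb9) to 0.52 (Ddit3) in the first list and from -0.70 (Hsp90aa1) to 0.74 (Hsph1) in the second. Atf3, Trib3, Chac1, Sdf2l1, Hspa1a, Hspa1b and Hspe1 had too few counts to be tested. The PS2APP and non-Tg libraries overlapped for all 27 tested members, while 3.0% of all genes had groups without overlap. DESeq2 called 1 heat shock gene (Hsph1, adjusted p = 0.0466) and no ER stress gene, and limma-voom called none of either list.

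Hsph1 again had the smallest p of the heat shock genes. It was counted at 119.5, 169, 194, 106 and 200 CPM in PS2APP astrocytes, against 136, 87.8, 84.1, 82.0 and 91.2 CPM in non-Tg astrocytes. The 5 PS2APP libraries lay above 4 of the non-Tg ones, and the remaining non-Tg library, replicate 1, lay within their range. The log2 difference of 0.74 ± 0.21 had an adjusted p of 0.13 in edgeR; without that non-Tg library it was 0.89 ± 0.20, with an adjusted p of 0.048. With the mitochondrial share as a term the log2 difference was 0.01 ± 0.36, and with the summed markers of other cell types 0.56 ± 0.26 (adjusted p = 0.998 and 0.823). The mitochondrial share of PS2APP astrocytes, 5.60 to 8.60%, did not overlap that of non-Tg astrocytes, 2.41 to 4.74%. The fit with that share can therefore hardly tell it from genotype.

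Hspa4, another Hsp110 protein, was at 79.2, 77.7, 121.5, 71.4 and 98.9 CPM in PS2APP and at 74.9, 71.7, 68.3, 56.2 and 60.5 CPM in non-Tg astrocytes (log2 difference 0.46 ± 0.19, adjusted p = 0.226). Bag3, a co-chaperone that routes Hsp70 clients to autophagy, was at 22.3, 61.3, 58.1, 33.3 and 48.9 CPM in PS2APP and 36.0, 28.0, 23.1, 32.6 and 36.3 CPM in non-Tg astrocytes (0.54 ± 0.26, adjusted p = 0.293). For Hspa4, 4 PS2APP libraries lay above all non-Tg ones and the lowest lay among them. For Bag3, 3 PS2APP libraries lay above all non-Tg ones, 1 lay among them and 1 below them all. The constitutive Hsp90, Hsp90ab1, stood at 256, 292, 389, 310 and 260 CPM in PS2APP and 371, 183, 227, 146 and 230 CPM in non-Tg astrocytes (0.40 ± 0.21, adjusted p = 0.343, edgeR). Its highest non-Tg library lay above 4 of the PS2APP ones.

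Of the ER stress genes in astrocytes, Hsp90b1 had the smallest p, with 278, 395, 314, 292.5 and 308.5 CPM in PS2APP and 234, 284, 284, 202 and 251 CPM in non-Tg libraries. Only the lowest PS2APP library lay within the non-Tg range, and the log2 difference was 0.36 ± 0.16 (adjusted p = 0.255, edgeR). Ddit3 had 1 high PS2APP library, at 45.7 CPM, and 21.9 to 28.2 CPM in the other 4, against 18.5 to 22.7 CPM in non-Tg astrocytes (log2 difference 0.52 ± 0.24, adjusted p = 0.28). The lowest PS2APP library lay within the non-Tg range and the other 4 above it. Calr ran from 104 to 211 CPM in PS2APP and from 76.0 to 190 CPM in non-Tg astrocytes, with a log2 difference of 0.46 ± 0.24 (adjusted p = 0.336), and the groups overlapped in most of their range.

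Neurons also had no member past the threshold in edgeR, where 1 of 16064 genes, 0.00623%, was called. Among the members, 4 of the 18 tested ER stress genes and 4 of the 10 tested heat shock genes had an unadjusted p under 0.05, against 22.9% of all genes tested. All 28 tested members overlapped between genotypes, and 3.14% of all genes did not. The median log2 difference was -0.06 for the ER stress genes and 0.07 for the heat shock genes, against -0.02 over all genes. The values ran from -0.62 (Dnajb9) to 0.61 (Calr) in the first list and from -0.58 (Dnaja1) to 0.69 (Hsp90ab1) in the second. Atf3, Trib3, Hspa1a, Hspa1b, Bag3 and Hspe1 had too few counts to be tested. DESeq2 and limma-voom called none of either list.

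Hsp90ab1 had the smallest p among the heat shock genes in neurons. Its level was 325, 341, 411, 228.5 and 535.5 CPM in PS2APP neurons and 291, 189, 171, 208 and 274 CPM in non-Tg neurons. In 4 PS2APP libraries the level was above every non-Tg library, and the other lay within the non-Tg range. The log2 difference was 0.69 ± 0.21, with an adjusted p of 0.186. Hsph1 was at 224, 257.5, 311, 175 and 342 CPM in PS2APP neurons, against 313, 138, 122, 142 and 143 CPM in non-Tg neurons. Here too a single non-Tg library, replicate 1, stood far above the other 4; the labels do not say whether the libraries of that number share an animal. The log2 difference was 0.61 ± 0.25 with it and 0.93 ± 0.17 without it (adjusted p = 0.196 and 0.0731, edgeR). Hsf1 ranged from 142 to 262 CPM in PS2APP and from 92.3 to 183 CPM in non-Tg neurons, with a log2 difference of 0.47 ± 0.19 (adjusted p = 0.196, edgeR).

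In the ER stress list of neurons, Calr was counted at 139, 179, 266, 134 and 243 CPM in PS2APP and 175, 136, 96.4, 101 and 119 CPM in non-Tg libraries. The 3 highest libraries were of PS2APP mice, and the log2 difference was 0.61 ± 0.21 (adjusted p = 0.186, edgeR). Ddit3 ran from 14.0 to 25.3 CPM in PS2APP and from 12.3 to 16.4 CPM in non-Tg neurons (log2 difference 0.37 ± 0.17, adjusted p = 0.209). Hyou1, an ER exchange factor related to Hsp110, ran from 53.8 to 105 CPM in PS2APP and from 48.3 to 61.6 CPM in non-Tg neurons (0.36 ± 0.16, adjusted p = 0.21). For both genes 4 PS2APP libraries lay above all non-Tg ones and the lowest lay among them. The log2 difference of Hspa5 was -0.26 ± 0.17 and that of Canx, the membrane-bound lectin chaperone, -0.27 ± 0.12, opposite in sign to Calr.

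**Figure D3:**
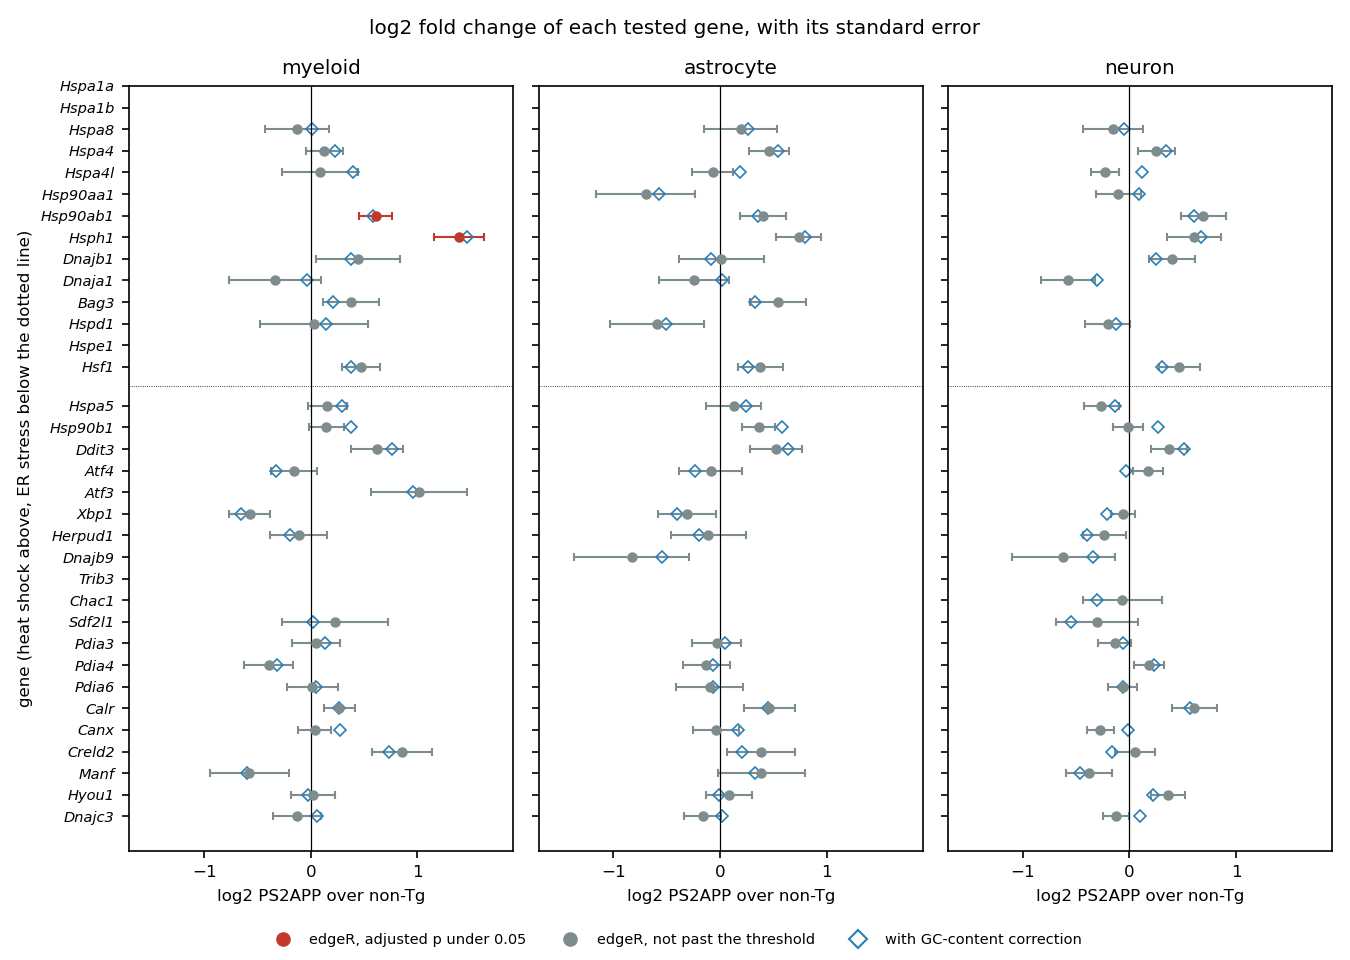
log2 fold change, PS2APP over non-Tg, of each tested member in myeloid cells, astrocytes and neurons; circles are edgeR estimates with their standard errors (red past an adjusted p of 0.05, grey not), and diamonds are the estimates after correction for transcript GC content. Hsph1 and Hsp90ab1 in myeloid cells are the red circles, and both genes lie to the right of 0 in all 3 populations.

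Some members had the same sign in all 3 populations. Of the 24 members tested in all 3, 9 were positive in each (Hsph1, Hsp90ab1, Hsf1, Hspa4, Dnajb1, Calr, Creld2, Ddit3 and Hyou1) and 4 were negative in each (Xbp1, Herpud1, Dnajc3 and Dnaja1). Over the 10583 genes tested in all 3 populations, 29.7% were positive and 24.0% negative throughout. These counts are descriptions with no test. After the correction for GC content described below, 9 members were positive and 3 negative throughout, but they were not all the same genes. Creld2, Dnajb1 and Hyou1 were no longer positive throughout, and Dnajc3, Hsp90b1 and Hspa4l were. Dnaja1 and Dnajc3 were no longer negative throughout, and Atf4 was.

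Whether the PS2APP effect differed between populations was tested in a fit of all 30 libraries, in which 31 members were tested and 0 were called in each of the 3 contrasts. For myeloid minus astrocyte, 0.757% of 18101 genes were called, and 1 member had an unadjusted p under 0.05, against 13.0% of all genes. That member was Manf, with an effect 1.04 ± 0.48 lower in myeloid cells on the log2 scale (adjusted p = 0.351, edgeR). For myeloid minus neuron the shares over all genes were 0.105% called and 9.65% under an unadjusted 0.05, with 1 member in the second count, the disulfide isomerase Pdia4 (-0.67 ± 0.29, adjusted p = 0.438). For astrocyte minus neuron they were 0.0331% and 4.97%, with 0 members. DESeq2 and limma-voom also called no member. The Hsph1 effect was 0.60 ± 0.36 (log2, SE) larger in myeloid cells than in astrocytes and 0.70 ± 0.36 larger than in neurons, with adjusted p-values of 0.502 and 0.545 in edgeR. The effect on Hsp90ab1 differed by 0.14 ± 0.30 between myeloid cells and astrocytes and by -0.18 ± 0.30 between myeloid cells and neurons (adjusted p = 0.895 and 0.897). The calls in myeloid cells were therefore not matched by a called difference from the other populations.

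Fold changes followed the base composition of the transcripts in all 3 populations. Across genes, which are not independent replicates, Spearman's rho between the log2 fold change and transcript GC content was 0.32 over 11273 genes in myeloid cells, 0.33 over 12395 genes in astrocytes and 0.52 over 13684 genes in neurons. In neurons the median log2 fold change was -0.29 in the lowest of 5 equal groups of genes by GC content and 0.31 in the highest. The trend also differed among libraries of 1 genotype: the rho of a library's deviation from the population mean with GC content ran from -0.25 to 0.54 in PS2APP neurons and from -0.55 to -0.01 in non-Tg neurons.

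After a correction for GC content, added after the data were seen, the median of these 5 groups ran from 0.0079 to 0.0365 in myeloid cells, from 0.016 to 0.051 in astrocytes and from -0.002 to 0.0207 in neurons. Hsph1, whose transcript has a GC content of 47.3%, kept its call in myeloid cells (1.46, adjusted p = 0.0018), and its differences were 0.80 in astrocytes and 0.67 in neurons. Hsp90ab1, at 51.0% GC, was just over the threshold in myeloid cells (0.58, adjusted p = 0.0559). Members of low GC content also shifted: Dnaja1 in neurons, at 41.2% GC, was at -0.58 before and -0.30 after the correction, and Hspa4l, at 39.5% GC, at -0.23 before and 0.12 after. After the correction edgeR called 0 ER stress genes in each population.

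**Figure D4:**
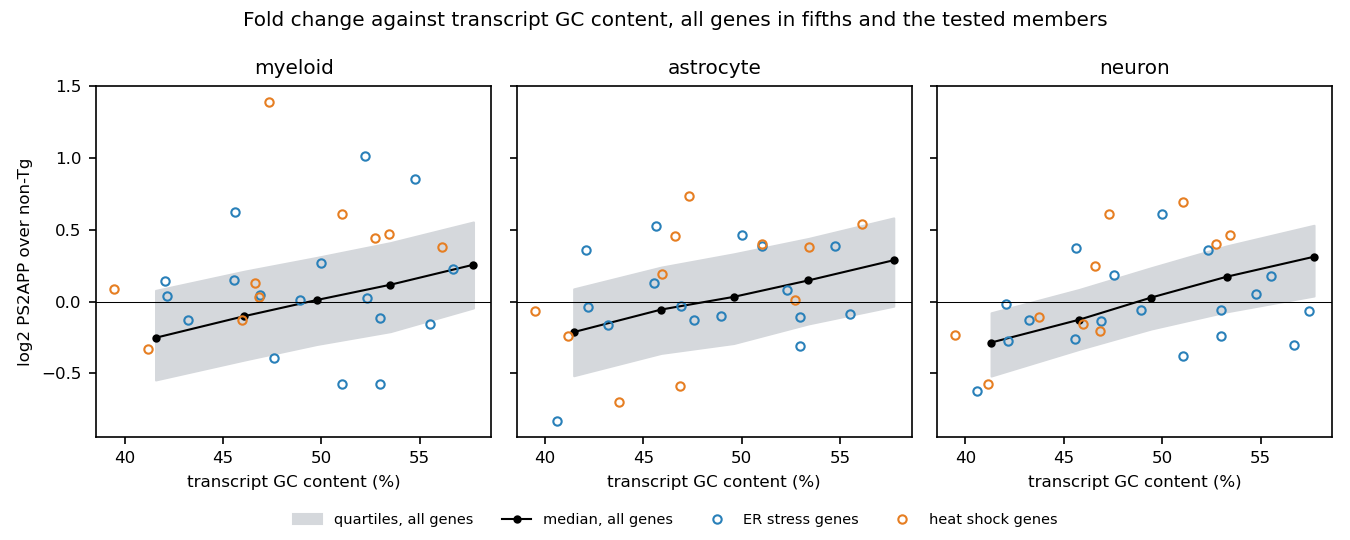
log2 fold change, PS2APP over non-Tg, against transcript GC content in percent; the black line joins the medians of 5 equal groups of all tested genes, the grey band is their quartiles, and open circles are the tested ER stress (blue) and heat shock (orange) genes. The black line climbs in each panel, with end points at -0.29 and 0.31 in neurons, and Hsph1 in myeloid cells (47.3% GC, log2 1.39) lies far above the band.

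Between the non-Tg libraries of the 3 populations, edgeR called 25 of 31 tested members in the myeloid and astrocyte contrast, 26 in the myeloid and neuron contrast and 11 in the astrocyte and neuron contrast. In non-Tg libraries most ER stress genes were higher in myeloid cells: of 19 tested, 14 were higher and 3 lower in myeloid cells than in astrocytes, where 26.8% of all 18101 genes were higher and 30.7% lower. Against neurons, 15 were higher and 1 lower, with 34.1% and 33.7% of all genes. Between astrocytes and neurons, 5 were higher in astrocytes and 0 lower (26.9% and 24.8% of all genes); limma-voom called 1 lower and DESeq2 2, and 6 genes had an unadjusted p under 0.05 in edgeR. The median log2 differences of the list were 0.80, 1.03 and 0.17 in these 3 contrasts, against -0.11, 0.03 and 0.02 over all genes. The sort, the RNA yield, which by the labels' protocols was largest for neurons and smallest for astrocytes, and any batch cannot be told apart from the cell type in these contrasts.

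With the size factors of DESeq2 in place of TMM, the median over all genes moved to -0.28 for myeloid over astrocyte and to -0.20 for myeloid over neuron, and the ER stress list to 0.62 and 0.80, so that the list median was above that of all genes under both scalings. Under that scaling 2 heat shock genes were higher in myeloid cells than in astrocytes and 3 than in neurons. The share of all genes called under that scaling is not given here, so these counts have no background. The heat shock median over astrocytes was -0.12, against 0.05 with TMM.

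Among the ER stress genes, Atf3 and Sdf2l1 had the largest differences towards myeloid cells. Atf3 was at 2.23 ± 1.15 and 1.05 ± 0.469 RPKM in PS2APP and non-Tg myeloid cells, while non-Tg astrocytes and neurons averaged 0.0306 and 0.0388 RPKM. All 4 counts of the non-Tg astrocytes lay in replicate 5. Its log2 difference in non-Tg libraries was 5.25 ± 0.90 over astrocytes and 4.87 ± 0.82 over neurons (adjusted p = 4.79e-06 and 2.71e-06, edgeR). Without that replicate, and with 3 counts as the floor, Atf3 was at least 58.9-fold higher in myeloid cells than in the remaining non-Tg astrocyte libraries. This value leaves out the only non-Tg astrocyte library with a count, so it is not a lower bound over all libraries of the group. Sdf2l1, a partner of ER J-proteins, was 3.19 ± 0.64 and 2.60 ± 0.60 higher in myeloid cells than in astrocytes and neurons (adjusted p = 6.29e-05 and 0.000262). Herpud1 was 1.80 ± 0.28 higher in myeloid cells than in astrocytes and 2.09 ± 0.28 higher than in neurons.

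Chac1 went the other way. It had no count in the 5 non-Tg myeloid libraries, against 26 counts in non-Tg astrocytes and 73 in non-Tg neurons, so that it was at least 7.74-fold lower in myeloid cells than in astrocytes and at least 20.8-fold lower than in neurons, taking 3 counts over the group as the floor. Of the 26 counts, 14 lay in non-Tg astrocyte replicate 1, and without it the bound against astrocytes was 4.76-fold. Dnajb9, an ER J-protein that restrains IRE1, was highest in astrocytes, by 1.38 ± 0.54 over myeloid cells and 1.88 ± 0.54 over neurons (log2; adjusted p = 0.0269 and 0.00366, edgeR). The call over myeloid cells was lost with the GC correction (adjusted p = 0.056), in limma-voom (0.0502) and without non-Tg astrocyte replicate 3 or non-Tg myeloid replicate 1 or 4 (0.106, 0.0568 and 0.0517). Pdia4, a disulfide isomerase, was 1.22 ± 0.20 higher in astrocytes than in neurons. Dnajc3, an ER J-protein also known as an inhibitor of PERK, was likewise highest in astrocytes, at 6.31 ± 1.03 and 7.16 ± 0.899 RPKM in PS2APP and non-Tg cells, against 3.52 to 3.73 in the myeloid groups and 3.04 to 3.32 in the neuron groups.

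The heat shock genes did not share 1 direction between populations. In non-Tg libraries 5 of 12 tested were higher and 3 lower in myeloid cells than in astrocytes, against 26.8% and 30.7% of all genes. Against neurons 6 were higher and 4 lower in myeloid cells (34.1% and 33.7% of all genes), and 3 were higher and 3 lower in astrocytes than in neurons (26.9% and 24.8%). Their median log2 differences were 0.05, 0.40 and -0.28 in the 3 contrasts. Bag3 was far lower in neurons than in the other populations. It averaged 3.89 ± 0.654 RPKM in PS2APP and 2.89 ± 0.809 in non-Tg myeloid cells, 6.21 ± 2.32 in PS2APP and 4.33 ± 0.778 in non-Tg astrocytes, and 0.136 ± 0.111 in PS2APP and 0.102 ± 0.0142 in non-Tg neurons. Its log2 difference over neurons was 5.01 ± 0.37 in myeloid cells and 5.43 ± 0.38 in astrocytes (adjusted p = 2.98e-14 and 8.53e-15, edgeR), and the myeloid and astrocyte levels did not differ past the threshold (-0.42 ± 0.28, adjusted p = 0.205).

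Hspa4l, an Hsp110 protein, was lowest in myeloid cells, by 2.20 ± 0.20 against astrocytes and 2.78 ± 0.21 against neurons on the log2 scale. Hsp90aa1 was also lower in myeloid cells, by 1.54 ± 0.39 and 1.74 ± 0.39, at the low and uncertain levels given above. In PS2APP libraries its log2 differences were -0.51 ± 0.42 over astrocytes and -1.33 ± 0.41 over neurons (adjusted p = 0.317 and 0.0045, edgeR). Dnajb1 was 1.503 ± 0.38 higher in myeloid cells than in astrocytes. Hspe1, the mitochondrial co-chaperonin, had log2 differences of 1.48 ± 0.64 and 1.37 ± 0.61 over astrocytes and neurons, with adjusted p-values of 0.0462 and 0.0457 that rest on 50, 16 and 25 counts in the 3 non-Tg groups. Both calls were lost in DESeq2 (adjusted p = 0.0708 and 0.0879), with its size factors in edgeR (0.0761 and 0.0975) and with no low-count filter (0.117 and 0.139). Most fits that left out 1 library lost them, with adjusted p-values up to 0.137 and 0.117. They held in limma-voom (0.0441 and 0.0242) and with the GC correction in edgeR (0.0368 and 0.0242). In PS2APP libraries, also on few counts, the Hspe1 differences were 3.08 ± 0.70 and 2.93 ± 0.64 (adjusted p = 0.000343 and 0.000162, edgeR). Hsf1 was 0.89 ± 0.22 higher in astrocytes than in neurons, and Hspa8, whose level is uncertain as given above, was 0.89 ± 0.30 lower. In PS2APP libraries the log2 differences were 0.77 ± 0.22 for Hsf1 and -0.57 ± 0.31 for Hspa8 (adjusted p = 0.00322 and 0.119, edgeR). Hsp90ab1 was 0.49 ± 0.21 higher in astrocytes than in neurons in edgeR (adjusted p = 0.0465). That call was lost with the GC correction (0.37, adjusted p = 0.131), in DESeq2 and limma-voom (adjusted p = 0.0977 and 0.0731) and without non-Tg astrocyte replicate 1, where the difference was 0.22 (adjusted p = 0.388); in PS2APP libraries it was 0.17 ± 0.21 (adjusted p = 0.524).

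Hsph1 was lowest in myeloid cells of non-Tg mice, by 0.82 ± 0.26 against astrocytes and 1.19 ± 0.26 against neurons on the log2 scale (adjusted p = 0.00652 and 0.000117, edgeR), while astrocytes and neurons did not differ past the threshold (-0.37 ± 0.25, adjusted p = 0.228). In PS2APP libraries the same differences were -0.22 ± 0.26 and -0.49 ± 0.25 and did not pass it (adjusted p = 0.482 and 0.086). The change between genotypes in these differences is the contrast of effects given above, which was not called.

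The wider machinery around the members was examined with 6 further lists. edgeR called 0 of 12 sensors and switches of the unfolded protein and integrated stress responses in each population, and the 2 of smallest p in myeloid cells were Atf6b, an ATF6 relative (0.46 ± 0.20), and Eif2ak1, a kinase of the integrated stress response (0.47 ± 0.25). It also called 0 of the tested ATF4 target genes, 17 in myeloid cells and 16 each in astrocytes and neurons. Psat1, an enzyme of serine synthesis, was at 1.05 ± 0.37 in myeloid cells (adjusted p = 0.114, edgeR), and Sars, the seryl-tRNA synthetase, at 0.59 ± 0.24 (adjusted p = 0.176). For these 2 lists DESeq2 and limma-voom also called 0; 1, 1 and 3 of the sensors and 2, 5 and 1 of the ATF4 targets had an unadjusted p under 0.05 in myeloid cells, astrocytes and neurons, where 19.3%, 17.2% and 22.9% of all genes did. Of 19 genes of ER-associated degradation and ER import, 0 rose and 1 fell in myeloid cells, where 1.86% of all genes rose and 1.5% fell: Edem1, a lectin that marks misfolded glycoproteins, averaged 55.2 ± 9.85 CPM in PS2APP and 99.4 ± 28.5 CPM in non-Tg libraries, with a log2 difference of -0.79 ± 0.21 (adjusted p = 0.0401). Sel1l, the scaffold of the degradation complex, was at -0.51 ± 0.18 (adjusted p = 0.119, edgeR). Among 12 genes of mitochondrial protein quality control, Yme1l1, a protease of the inner membrane, fell to 20.9 ± 3.35 CPM in PS2APP, against 41.1 ± 10.2 CPM in non-Tg myeloid cells (-0.92 ± 0.25, adjusted p = 0.0468). Clpx, the unfoldase of the matrix protease ClpXP, was at -1.05 ± 0.30 (adjusted p = 0.0531). Of the tested immediate early genes, which respond to acute stimulation, edgeR called 0 in each population; Zfp36 was at 0.64 ± 0.20 and Dusp1 at 0.71 ± 0.40 in myeloid cells (adjusted p = 0.0686 and 0.342). In myeloid cells, astrocytes and neurons 1, 3 and 0 of them had an unadjusted p under 0.05, and DESeq2 called 1 in myeloid cells and 1 in astrocytes. Their summed level was 334 ± 68.6 CPM in PS2APP and 252 ± 38.6 CPM in non-Tg myeloid libraries.

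Of 27 tested cytosolic chaperones and co-chaperones outside the members, 3 rose in PS2APP myeloid cells and 0 fell, against 1.86% and 1.5% of all 12274 genes tested. St13, a co-chaperone that stabilises Hsp70, averaged 83.1 ± 15.6 CPM in PS2APP and 47.8 ± 7.01 CPM in non-Tg libraries (log2 0.85 ± 0.19, adjusted p = 0.0204, edgeR). Cryab is a small heat shock protein abundant in oligodendrocytes. It averaged 20.4 ± 4.68 CPM in PS2APP and 7.34 ± 3.62 CPM in non-Tg libraries (1.52 ± 0.39, adjusted p = 0.0321, edgeR). The oligodendrocyte marker sums of these libraries are given above. Their part in this difference was not tested beyond the fit with marker sums as a term, whose value for Cryab is not given here. Cdc37, the kinase-specific partner of Hsp90, averaged 116 ± 35.1 CPM in PS2APP and 72.2 ± 12.3 CPM in non-Tg libraries (0.73 ± 0.20, adjusted p = 0.0429) and was named after its values were seen. In astrocytes and neurons edgeR and limma-voom called 0 genes of the 6 lists, and DESeq2 called none of them beyond the 1 immediate early gene in astrocytes. The unadjusted p was under 0.05 for 3 degradation, 8 chaperone and 0 mitochondrial genes in astrocytes (17.2% of all genes) and for 7, 8 and 1 in neurons (22.9% of all genes). The numbers of genes of each list tested there are not given here, so these counts cannot be read as shares. The same counts in myeloid cells are not given either. Of these 5 myeloid calls, St13 held after the GC correction (1.13, adjusted p = 0.00632). The other 4 did not, with log2 differences of 1.41 for Cryab (adjusted p = 0.0567), 0.73 for Cdc37 (0.0592), -0.66 for Edem1 (0.0947) and -0.57 for Yme1l1 (0.244). With 1 library left out, St13 was called in 7 of 10 fits, Cryab and Cdc37 in 3, and Edem1 and Yme1l1 in 1. The fits with the mitochondrial share or the marker sums as a term, in which member calls were lost, are not given here for these 5 genes. DESeq2 called 4 of the chaperones higher, and 1 degradation gene and 3 mitochondrial genes lower, in myeloid cells. The share of all genes that DESeq2 called is not given here, and the shares above are those of edgeR.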

How the data were processed

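RNA-seq of 30 sorted mouse libraries was used, 5 in each of 6 groups set by the labels. The authors deposited, per library, whole-number counts per gene and RPKM values. The submitters' processing notes name GSNAP and the GRCm38 build; how reads were assigned to genes is not stated there. The deposited RPKM equalled the count times a library factor over a gene length to a relative deviation of 3.82e-14; the factor was not the inverse of the library total. All 36528 gene IDs entered the library totals and the tests; the RefSeq table gave a symbol for 31049 of them, with 96.7% of counts. Library totals ran from 2015535 to 6749681 counts; floors of 3 counts cover counting error only.

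Counts were fitted with edgeR 4.0.16 (quasi-likelihood, filterByExpr, TMM, Benjamini-Hochberg adjustment over all genes tested, adjusted p under 0.05) in R 4.3.3, per population for PS2APP over non-Tg and over all 30 libraries for contrasts between populations. DESeq2 1.42.0, limma 3.58.1 (voom), other size factors, no low-count filter, covariates for mitochondrial share and other-cell markers, and leaving out each library were alternatives. A correction for transcript GC content (lowess span 0.3) was added after the data were seen. CPM were computed with TMM factors within each population, and those given for Gfap alone with factors over all libraries. The overlap of groups was also counted on library totals alone, as was the effect of leaving out the library with most counts of Chac1 or Atf3, both added later. Fits were tested on simulated data. Tables were made with Python 3.11.15.

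The members, the 6 wider lists and the marker lists were chosen with earlier results of these data known. Named genes were members past the threshold, the 3 members of smallest p per list and population, the 2 largest positive and 2 largest negative per list and contrast between populations, and at most 2 genes of smallest p per wider list and population, of which those in myeloid cells are given. Members were also checked for 50-base windows shared with other genes.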

Additional observations from a re-analysis of the deposited data

Results flagged for a closer look

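For each member and group of 5 libraries, the highest or lowest library was flagged where its gap to the nearest of the others was over 0.71 of the group's range (Dixon's 95% value). Of 164 groups examined, 14 were flagged, and chance flags about 1 in 20 groups.

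Hsph1 was flagged in 4 groups. It stood at 211 CPM in PS2APP myeloid replicate 5, with 132 to 142 CPM in the other 4. In non-Tg replicate 1 it stood at 108 CPM in myeloid cells (43.1 to 56.7 CPM in the others), 136 CPM in astrocytes (82.0 to 91.2 CPM) and 313 CPM in neurons (122 to 143 CPM). Non-Tg neuron replicate 1 was also flagged for Hspa4, at 206.5 CPM against 104 to 128 CPM in the others, and for Hsp90aa1, low at 6.51 CPM against 9.27 to 10.2 CPM.

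Ddit3 was flagged in 3 groups. It stood at 107 CPM in PS2APP myeloid replicate 4 (45.3 to 54.9 CPM in the others), at 45.7 CPM in PS2APP astrocyte replicate 3 (21.9 to 28.2 CPM) and low, at 12.3 CPM, in non-Tg neuron replicate 3 (15.9 to 16.4 CPM). The first 2 libraries also lie at the end of principal component 1 in their population. Sdf2l1 was high in the same non-Tg neuron replicate 3, at 3.23 CPM, with 1.49 to 1.95 CPM in the others.

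The remaining flags were single. Hyou1 was at 105 CPM in PS2APP neuron replicate 5 (53.8 to 68.0 CPM in the others). Calr was at 280 CPM in non-Tg myeloid replicate 1 (231 to 244 CPM), Creld2 at 36.7 CPM in PS2APP astrocyte replicate 2 (11.1 to 17.7 CPM), and Hspd1 at 6.5 CPM in PS2APP neuron replicate 2 (4.04 to 4.60 CPM).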

How the results depend on the processing

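No paired analysis was possible because the labels carry no replicate numbers that tie libraries across groups. In myeloid cells the count of ER stress genes called was 0, 1 with DESeq2 and 0 to 1 with 1 library left out. The count of heat shock genes called there was 2. It was 1 with the GC correction, 0 with a mitochondrial covariate, 1 with an other-cell marker covariate, 1 without the library farthest out on component 1, and 1 to 3 with 1 library left out. In astrocytes the heat shock count was 0, 1 with DESeq2, 1 with no low-count filter and 0 to 1 with 1 library left out. With the mitochondrial covariate the astrocyte log2 differences turned negative for Hsp90ab1 (-0.26), Hspa4 (-0.12), Bag3 (-0.066), Ddit3 (-0.27) and Calr (-0.16). The mitochondrial share did not overlap between the genotypes in astrocytes, so this fit can hardly tell it from genotype. With the other-cell covariate the astrocyte log2 difference of Hsp90ab1 was -0.0074. Between non-Tg populations, the 5 heat shock genes higher in myeloid cells than in astrocytes were 2 with DESeq2 and with its size factors, 3 with no filter and 2 to 5 with 1 library left out. The 3 lower were 1 in PS2APP libraries. The 6 higher than in neurons were 3 with DESeq2, with its size factors and with no filter, and 3 to 6 with 1 library left out. The 0 ER stress genes lower in astrocytes than in neurons were 2 with DESeq2 and 1 with its size factors, limma-voom or no filter, and 0 to 1 with 1 library left out. In myeloid cells 1 member had groups without overlap on TMM-scaled CPM and 0 on library totals alone. The causes were not tested, and the shares of all genes called in these settings are not given here. Among named members, 759 leave-one-out values kept direction and side of the threshold, 58 lost the call and 3 gained one. Most of these values come from the contrasts between populations, where each library of the series was left out in turn. Most of those libraries belong to neither group compared, and leaving them out moves the estimate little. With other settings the numbers were 272, 16 and 3, and 6 changed sign.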
